A study of Mus musculus with 6 samples.

Results

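The 6 libraries of this study of mouse CD4 T cells carry either of 2 library codes in the sample descriptions, and the 3 libraries coded CCPF22 were compared with the 3 coded CCPF24. Series 22 held WT 1, WT 2 and KO 1, and series 24 held WT 4, KO 4 and KO 5, so all 6 of 6 samples entered the comparison and each series held both genotypes. Libraries were assigned by the code alone, with no measured value. The comparison asks which transcripts differ between these library series once genotype is accounted for, and the sources used here do not say what the code stands for. Each description also begins with a number whose prefix splits the libraries exactly as the code does. The prefix and the code therefore cannot be told apart here.

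The WT samples are labelled iCD4-PRMT5fl/fl, that is, with floxed alleles of the arginine methyltransferase gene Prmt5, and the KO samples are labelled iCD4-PRMT5 delta/delta. All samples are of the C57BL/6 strain and are whole CD4 T cells taken out of spleen and lymph nodes. The sample titles say rest, whereas the treatment label of every sample says anti-CD3/CD28 for 48 h, so the activation state of the cells is not settled here. The sample descriptions and the names of the value columns used also end in rest. The names of the unused value columns end in act. The activation state is labelled alike in both series. The sources used here do not give the age of the animals, whether animals were pooled, or which promoter drives the Cre behind the deleted alleles. RNA depleted of ribosomal RNA was made into stranded libraries. Series 22 held 2 WT libraries and 1 KO library and series 24 held 1 and 2, and genotype was therefore kept as a term of the fit.

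Cells under proteotoxic stress switch on the heat shock response, in which the transcription factor HSF1 binds heat shock elements in the promoters of chaperone genes such as Hspa1a and Hspa1b, the inducible forms of the chaperone HSP70. Immediate early genes such as Fos, Jun, Egr1 and Nr4a1 are transcribed quickly after a stimulus, without new protein synthesis, and in T cells they follow antigen receptor signals as well as stress. Tnfaip3 encodes A20, a ubiquitin-editing enzyme that is induced by NF-kappaB and restrains it.

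Values are deposited robust FPM, that is, fragments assigned to a gene and scaled between libraries by robust size factors, which leaves the libraries with unequal sums. A difference is series 22 minus series 24 on the log2(value + 0.5) scale, which understates the change of low genes, and it comes with its standard error (SE) from the fit. A gene was called where its limma p-value, adjusted over the 14944 genes with a mean of at least 1, was below 0.05. Levels are not per length, so they are compared between libraries and not between genes. In bulk RNA, fewer cells of a type and less RNA per cell cannot be told apart.

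Library sums over genes lay between 857333.5 and 954013.7 FPM, and spike-in RNAs took 0.752% to 1.59% of a library, with overlapping ranges in the series. Some clone-named genes took unequal parts of these sums. Gm26870 and Gm10800 were highest in WT 1, at 84344.3 and 77190.7 FPM, and lowest in WT 4, at 792.5 and 1651.1. WT 1 stood apart from the other 5 libraries on the first principal component (67.3% of the variance), and the other libraries of the series parted on the second (13.4%). Signal over 1967 olfactory and vomeronasal receptor genes, which T cells are not known to transcribe, was 0.295 FPM per kb in WT 1 and 0.0141 to 0.0813 in the other 5. The Y-linked genes Ddx3y, Eif2s3y, Kdm5d and Uty were at 0.0 to 0.1 in WT 1 and KO 4, that is, in 1 library of each series, and at 22.5 to 136.0 in the other 4. Xist, made from the inactive X chromosome, was at 438.3 to 977.8 in all 6. Prmt5 was at 34.9 (WT 1), 41.0 (WT 2) and 24.4 (KO 1) in series 22 and at 43.9 (WT 4), 23.8 (KO 4) and 21.5 (KO 5) in series 24. Every KO library was thus below every WT library, and the series difference of Prmt5 was -0.05 (SE 0.137, limma adjusted p = 0.927).

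Among the genes called higher in series 22 were 4 of 45 tested heat shock genes (Hspa1a, Hspa1b, Hsph1 and Hsp90aa1), 5 of 47 immediate early genes (Nr4a1, Nr4a2, Jun, Plk2 and Ppp1r15a) and Tnfaip3. Called higher were 20 genes, 0.134% of those tested, and called lower was 1 gene, 0.00669%. At an unadjusted p below 0.05, 424 genes were higher and 893 lower. By position alone, all 3 series 22 libraries lay above all 3 of series 24 for 917 genes (6.14%) and below them for 2140 genes (14.3%). Over all genes the median difference was -0.06, at -0.17 within WT and 0.02 within KO, and 38.3% of genes had a positive difference. Each of the 21 called genes had no overlap between the series and the same sign within WT and within KO. The calls were made from these same libraries, so this describes the called genes and is no further support for them.

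**Figure D1:**
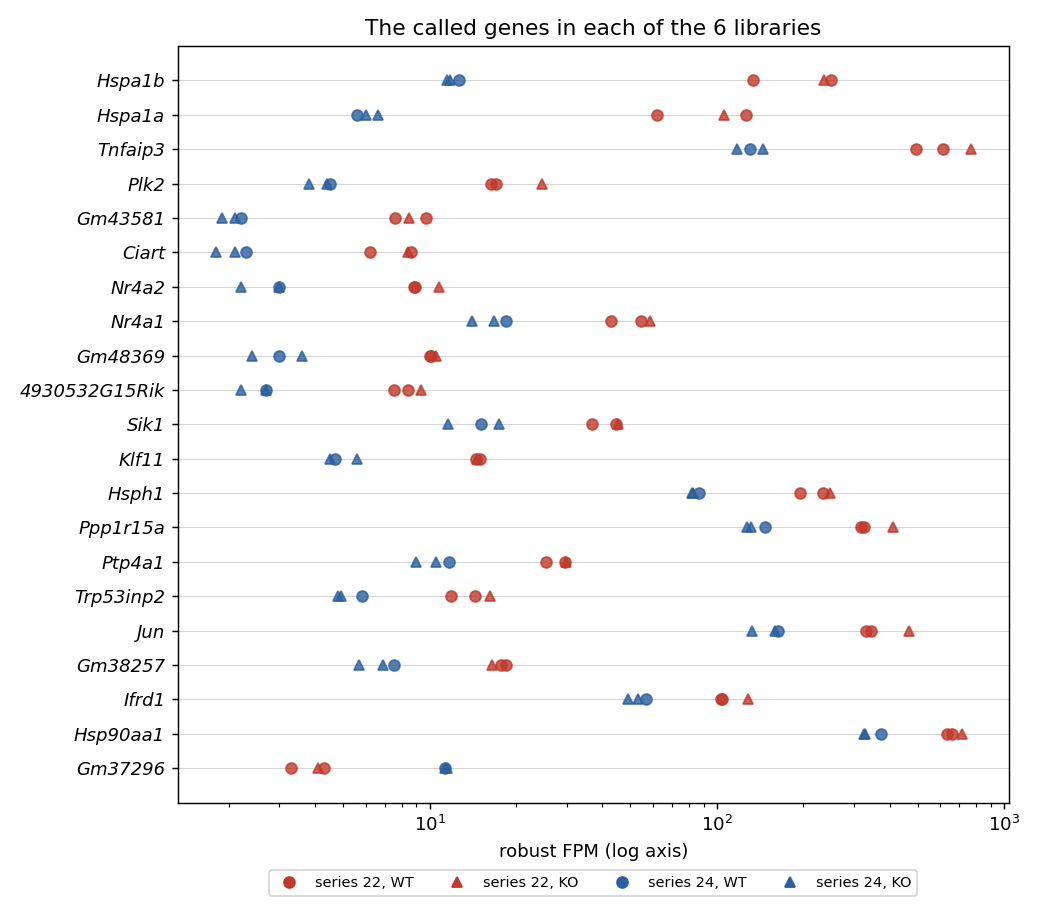
Robust FPM (log axis) of the 21 called genes in each library, ordered by their series difference, with red for series 22, blue for series 24, circles for WT and triangles for KO. For every gene the 3 red symbols lie on one side of the 3 blue ones, to the right for 20 genes and to the left for Gm37296.

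The number of calls moved with single libraries. Without WT 1, the library with the highest background, limma called 92 genes higher and 19 lower. The counts were 6 and 1 without WT 2, 19 and 25 without KO 4, and 8 and 0 without KO 5, where 588 genes were lower at an unadjusted p below 0.05. Without KO 1, and likewise without WT 4, limma called 0 genes, with 655 higher and 1149 lower at an unadjusted p below 0.05 in the first case and 379 and 130 in the second. In both of these cases the series difference rests on 1 genotype, with a single library on one side that is assumed to vary like the others. All 21 called genes had the same sign in each of the 6 fits that left out a library. Because these genes were selected with all 6 libraries, that sign was largely set by the selection. Scaling to the spike-in rows gave 8 higher and 3 lower, so that 72.7% of calls were higher against 95.2% with the deposited scaling. Of the 20 genes called higher with the deposited scaling, 3 were called again with spike-in scaling, and the 1 called lower was not, though all 21 had the same sign.

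**Figure D2:**
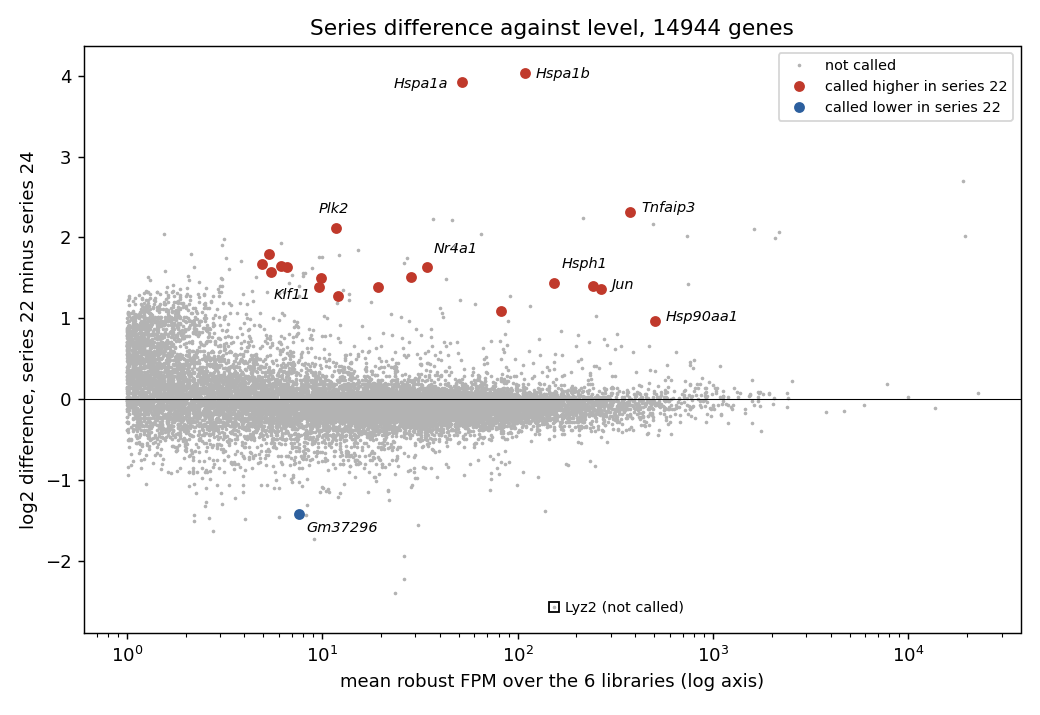
Difference between series (log2, series 22 minus series 24) against the mean robust FPM over the 6 libraries (log axis) for 14944 genes, with called genes as large symbols. Hspa1b and Hspa1a lie at the top, at 4.04 and 3.92, and Lyz2 lies lowest, at -2.57, without being called.

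Hspa1b and Hspa1a, neighbouring genes for the inducible HSP70 chaperone, had the largest differences among the called genes. Hspa1b (ENSMUSG00000090877.3, GRCm38 chromosome 17, 34956436 to 34959238, minus strand) measured 249.3, 133.2 and 236.7 FPM in WT 1, WT 2 and KO 1, and 12.7, 11.5 and 11.8 in WT 4, KO 4 and KO 5. The lowest series 22 library, WT 2, was far above the highest of series 24. The mean was 206 ± 63.7 (SD, n = 3) in series 22 and 12 ± 0.624 (SD, n = 3) in series 24, with a difference of 4.04 (SE 0.241, limma adjusted p = 0.00281). Hspa1a (ENSMUSG00000091971.3, chromosome 17, 34969190 to 34972156, minus strand) measured 126.3, 61.9 and 105.9 in series 22 and 5.6, 6.0 and 6.6 in series 24. Again WT 2 was the lowest of series 22, and the groups did not overlap (difference 3.92, SE 0.253, limma adjusted p = 0.00281). The difference of Hspa1b was 3.79 within WT and 4.29 within KO, and that of Hspa1a was 3.87 and 3.97.

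Both genes are so similar that a read can belong to either, and the sources used here do not say how the authors' counting divided such reads, so the division between them is uncertain. Summed, they measured 375.6, 195.1 and 342.6 in series 22 and 18.3, 17.5 and 18.4 in series 24, so that the series 22 mean was 16.9 times that of series 24. Hspa1b was 1.79 to 2.27 times Hspa1a over the 6 libraries, with overlapping ranges in the series. Over the 250 bases before the start of transcription, 247 bases (98.8%) were identical. These promoters are printed because each carries an inverted repeat of the heat shock element, GAANNTTC, in capitals, beginning 104 bases before the start. They are from RefSeq on GRCm38.p6, minus strand, Hspa1b at chr17:34959239-34959488 and Hspa1a at chr17:34972157-34972406, written 5′ to 3′.
Hspa1b: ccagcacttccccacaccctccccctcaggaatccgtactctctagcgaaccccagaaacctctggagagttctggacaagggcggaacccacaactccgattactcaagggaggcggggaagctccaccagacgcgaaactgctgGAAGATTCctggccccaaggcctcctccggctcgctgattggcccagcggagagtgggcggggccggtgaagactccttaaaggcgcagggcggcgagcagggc
Hspa1a: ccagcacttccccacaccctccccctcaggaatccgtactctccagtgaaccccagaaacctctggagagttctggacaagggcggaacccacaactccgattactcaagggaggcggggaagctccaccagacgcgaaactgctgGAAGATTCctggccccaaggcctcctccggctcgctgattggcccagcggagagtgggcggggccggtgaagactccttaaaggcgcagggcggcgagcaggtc

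Hsph1 and Hsp90aa1 were the other chaperone genes called. Hsph1 (ENSMUSG00000029657.15, chromosome 5, 149614287 to 149636376, minus strand), which encodes HSP110, a nucleotide exchange factor of HSP70, measured 233.9, 194.4 and 247.2 in series 22 and 86.6, 82.2 and 82.5 in series 24. The series 24 libraries were close together, and the series did not overlap (difference 1.44, SE 0.127, limma adjusted p = 0.0121). Hsp90aa1, the inducible form of HSP90, measured 659.5, 633.7 and 715.9 in series 22 and 371.6, 327.2 and 325.8 in series 24. Its groups did not overlap either, at a smaller difference of 0.96 (SE 0.116, limma adjusted p = 0.032).

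Of the 45 tested genes of the heat shock list, 4 (8.89%) were called higher and 0 lower, and 17 (37.8%) lay above series 24 in all 3 libraries, against 6.14% of all genes. The median difference was 0.14, against -0.06 over all genes. It was -0.01 within WT and 0.33 within KO, against -0.17 and 0.02 over all genes. The J-domain co-chaperones of HSP70 came next. Dnajb9, induced by endoplasmic reticulum stress, measured 82.7, 76.7 and 94.4 against 42.3, 30.1 and 38.9 (limma adjusted p = 0.0567). Dnaja1 measured 391.4, 389.3 and 442.3 against 246.6, 242.5 and 220.2 (limma adjusted p = 0.06). Dnajb1, a classic HSF1 target, measured 202.9, 194.2 and 241.2 against 125.9, 127.3 and 108.9, a difference of 0.84 (SE 0.131) that did not pass (limma adjusted p = 0.088). In each of these genes the series did not overlap.

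Constitutive chaperones were not called. Hsp90ab1, the constitutive HSP90, measured 735.4, 738.3 and 841.1 against 526.6, 558.9 and 489.6 (difference 0.58, limma adjusted p = 0.157). Hspa8, the constitutive HSP70, measured 1104.1, 1174.2 and 1351.2 against 908.4, 1103.2 and 828.8 (difference 0.41, limma adjusted p = 0.457). For Hspa8 the lowest series 22 value was next to the highest of series 24. The mitochondrial chaperonin genes Hspd1 and Hspe1 had differences of 0.36 and 0.44 without overlap, and neither was called. The cytosolic chaperonin genes Cct2, Cct3, Cct4, Cct5 and Tcp1 had differences of 0.02 to 0.18 with overlapping series. Hsf1, the factor itself, measured 24.7, 31.1 and 32.8 against 32.3, 27.2 and 31.3 (difference -0.03, limma adjusted p = 0.975), and Bag3, a co-chaperone gene that HSF1 induces, measured 4.3, 4.8 and 5.0 against 4.5, 4.1 and 4.4 (difference 0.11, limma adjusted p = 0.864). Of the 51 symbols on the list, 6 had a mean below 1 and were not tested, among them Hspb1 and Cryab. Dnajb9, Dnaja1 and the chaperone genes from Hsp90ab1 on were chosen after their values were seen.

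A heat shock element with its units head to head, GAANNTTC, which reads the same on both strands, was found within the RefSeq promoters (250 bases before to 50 after the start) of 4 of the 14 called-higher genes that have one, namely Hspa1a, Hspa1b, Hsph1 and Jun (28.6%). It was in 5.69% of the promoters of the 10219 tested genes that have one. The tail to tail form, TTCNNGAA, was in 1 of 14 (Hsph1) and in 6.88% of all. It was in 6.46% of the 557 and 6.76% of the 1612. Either form was in 4 of 14 (28.6%) and in 11.9% of the tested genes. Hspa1a and Hspa1b, whose promoters are nearly identical, are counted separately among the 4. The windows of Jun and Hsph1 that hold an element before the start, with the element in capitals, are on the minus strand of GRCm38.p6. Jun is at chr4:95052311-95052370 and Hsph1 at chr5:149636337-149636396. A match of letters describes the window and not the binding of a factor.
Jun: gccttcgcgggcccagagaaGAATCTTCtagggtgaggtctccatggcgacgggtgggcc
Hsph1: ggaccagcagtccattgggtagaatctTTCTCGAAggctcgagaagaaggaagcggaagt

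Immediate early genes formed the list with the most calls, and every call was higher in series 22. Of 47 tested members, 5 (10.6%) were called higher and 0 lower, against 0.134% and 0.00669% of all genes. By position, 26 members (55.3%) lay above series 24 in all 3 libraries and 0 below, against 6.14% and 14.3% of all genes. The median difference was 0.58, at 0.39 within WT and 0.88 within KO, against -0.17 and 0.02 over all genes. A positive difference was found in 44 of 47 members. The list's mean log2 level was 5.18, 5.42 and 5.65 in WT 1, WT 2 and KO 1 and 4.82, 4.51 and 4.86 in WT 4, KO 4 and KO 5. The plot of gene lists shows these members beside those of other lists.

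**Figure D3:**
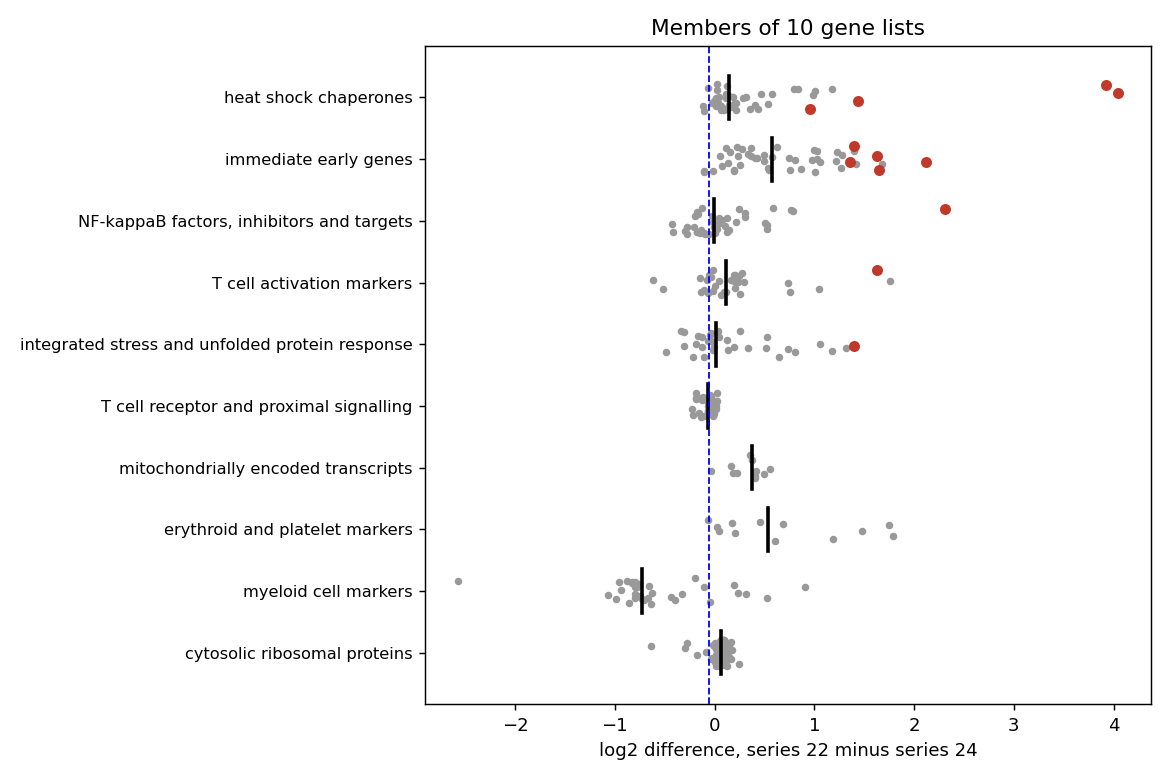
Difference between series (log2, series 22 minus series 24) of each tested member of 10 gene lists, with called members as large red points, the list's median as a black bar and the median of all genes, -0.06, as a dashed line. Immediate early genes have a median of 0.58, and myeloid markers have a median of -0.73.

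Nr4a1 (ENSMUSG00000023034.7, chromosome 15, 101254269 to 101274795, plus strand), the orphan nuclear receptor NUR77 that reports antigen receptor signal strength in T cells, measured 42.8, 54.6 and 58.6 in series 22 and 18.5, 14.1 and 16.7 in series 24. The lowest series 22 library, WT 1, was above every series 24 library, and the difference was 1.63 (SE 0.173, limma adjusted p = 0.0251). Its relative Nr4a2 was lower in level and measured 8.9, 8.8 and 10.8 against 3.0, 2.2 and 3.0 (difference 1.65, SE 0.196, limma adjusted p = 0.032). The third member of the family, Nr4a3, measured 21.1 to 23.0 against at most 14.5 and was not called (difference 0.76, limma adjusted p = 0.13). In all of them the series did not overlap.

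Jun (ENSMUSG00000052684.4, chromosome 4, 95049034 to 95052222, minus strand), a subunit of the transcription factor AP-1, measured 330.3, 344.2 and 467.0 in series 22 and 163.5, 132.7 and 159.9 in series 24. KO 1 was highest, the series did not overlap, and the difference was 1.36 (SE 0.162, limma adjusted p = 0.032). Junb, another subunit, measured 799.4, 1023.3 and 1401.8 against 443.4, 375.1 and 427.3. Its difference of 1.42 (SE 0.192) missed the threshold (limma adjusted p = 0.0513), with a wider spread within series 22. Fos, their partner, measured 60.7, 73.6 and 78.9 against 35.5, 17.5 and 39.9, with KO 4 lowest (difference 1.23, SE 0.306, limma adjusted p = 0.315). Egr1, a zinc finger factor, measured 16.1, 17.6 and 19.0 against 13.1, 11.5 and 12.2 and had one of the smaller differences of the list without overlap, 0.50 (SE 0.135, limma adjusted p = 0.36).

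Plk2 and Ppp1r15a were the remaining immediate early genes called. Plk2 (ENSMUSG00000021701.8, chromosome 13, 110395046 to 110400844, plus strand), a polo-like kinase, measured 17.0, 16.3 and 24.7 in series 22 and 4.5, 4.4 and 3.8 in series 24. KO 1 was the highest library, and the difference was 2.12 (SE 0.184, limma adjusted p = 0.0121). Ppp1r15a, also on the stress response list, encodes GADD34, which directs a phosphatase to the translation factor eIF2 alpha and so ends the integrated stress response. It measured 325.2, 318.6 and 411.7 against 146.7, 127.5 and 131.8, without overlap (difference 1.40, SE 0.138, limma adjusted p = 0.0199). Among members that did not pass, Klf6 measured 304.0, 321.6 and 380.0 against 176.9, 148.2 and 176.0 (limma adjusted p = 0.0513). Myc, Klf2 and Sgk1 overlapped between the series, with differences of -0.02, -0.11 and 0.05. Junb, Nr4a3, Klf6, Myc, Klf2 and Sgk1 were chosen after their values were seen.

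The cAMP response element TGACGTCA, a palindrome bound by CREB and ATF factors, was in the promoters of 3 of 14 called-higher genes (21.4%), Plk2, Ppp1r15a and Trp53inp2, and in 3.29% of tested genes. The AP-1 motif TGANTCA was in 1 of 14 (7.14%) and in 4.93% of tested genes, and the serum response element, searched by name, was in 0 of 14 and in 1.33%. Both strands were searched. The windows with the cAMP response element in capitals are from GRCm38.p6, Plk2 at chr13:110394962-110395021 on the plus strand, Ppp1r15a at chr7:45526269-45526328 on the minus strand and Trp53inp2 at chr2:155381795-155381854 on the plus strand.
Plk2: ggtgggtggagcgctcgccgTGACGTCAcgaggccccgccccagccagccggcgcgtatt
Ppp1r15a: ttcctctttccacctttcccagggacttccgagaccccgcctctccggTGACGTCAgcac
Trp53inp2: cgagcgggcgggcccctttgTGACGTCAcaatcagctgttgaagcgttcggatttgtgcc

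Tnfaip3 (ENSMUSG00000019850.11, chromosome 10, 19000910 to 19015657, minus strand) had the largest difference of the called genes after the HSP70 genes. It measured 493.8, 612.8 and 766.9 FPM in series 22 and 130.8, 117.8 and 144.5 in series 24. The mean was 624 ± 137 (SD, n = 3) against 131 ± 13.4 (SD, n = 3), the series were far apart, and the difference was 2.31 (SE 0.161, limma adjusted p = 0.00344). It was 2.07 within WT and 2.55 within KO.

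No other gene around NF-kappaB was called. Of 40 tested factors, inhibitors and targets, Tnfaip3 was the 1 called (2.5%, against 0.134% of all genes called higher), 4 lay above series 24 in all libraries (10%, against 6.14% of all genes) and 7 lay below (17.5%, against 14.3%). The median difference was -0.00. Those above series 24 were, beside Tnfaip3, Nfkbiz, Nfkbia and Cxcl10. Nfkbia, the inhibitor I-kappaB alpha and like Tnfaip3 a feedback target, measured 104.2, 140.6 and 163.5 against 94.8, 100.7 and 84.6 (difference 0.59, limma adjusted p = 0.394). Nfkbiz, an atypical inhibitor, measured 227.2, 259.4 and 285.9 against 157.4, 135.4 and 157.6 (difference 0.79, limma adjusted p = 0.105). Tnf, a cytokine target, measured 25.4, 28.4 and 34.6 against 27.1, 22.7 and 21.7, with overlap. These were chosen after their values were seen. An NF-kappaB motif, searched by name on both strands, was in the promoters of 2 of 14 called-higher genes, Tnfaip3 and Nr4a1 (14.3%), and in 4.9% of tested genes. Among those without overlap between the series, it was in 6.1% of the 557 above series 24 and 4.59% of the 1612 below. The window of Tnfaip3 at chr10:19015411-19015470 (GRCm38.p6, minus strand) has it next to the start, in capitals.
Tnfaip3: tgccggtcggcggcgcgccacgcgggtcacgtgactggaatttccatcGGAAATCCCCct

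Another 6 protein-coding genes with symbols of known products were called higher. Klf11, a repressor of the KLF family, measured 14.5, 15.0 and 14.6 in series 22 and 4.7, 4.5 and 5.6 in series 24, with little spread in either (difference 1.50, SE 0.149, limma adjusted p = 0.0199). Ptp4a1, a phosphatase that is induced in dividing cells, measured 25.4, 29.6 and 29.9 against 11.7, 9.0 and 10.5 (limma adjusted p = 0.0264). Sik1, a kinase induced by cAMP, measured 36.7, 44.6 and 45.2 against 15.1, 11.6 and 17.4 (limma adjusted p = 0.032). In these genes the lowest series 22 library was more than the highest of series 24. Ifrd1, a transcriptional coregulator, had 103.2, 104.1 and 128.3 against 56.8, 49.2 and 53.2 (limma adjusted p = 0.0345). Trp53inp2, an autophagy gene, had 11.9, 14.4 and 16.2 against 5.8, 4.8 and 4.9 (limma adjusted p = 0.0401). Ciart, a repressor of the circadian clock, was low and measured 6.2, 8.6 and 8.4 against 2.3, 2.1 and 1.8 (difference 1.67, SE 0.215, limma adjusted p = 0.0429). Sik1, Ifrd1 and Trp53inp2, like the long noncoding 4930532G15Rik, rank beyond the 12 smallest p-values and were chosen after their values were seen, to complete the calls.

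Among 20 tested clock genes, Ciart was the 1 called (5%), against 0.134% of all genes, 4 (20%) lay above series 24 in all libraries, against 6.14%, and the median difference was 0.03. Per1, a clock gene that stimuli also induce, measured 42.4, 58.5 and 64.8 against 26.9, 24.6 and 30.0, and it was not called (limma adjusted p = 0.101). The E-box CACGTG, the element of the clock factors CLOCK and BMAL1 and of other factors, was in 4 of 14 called-higher promoters, Ciart, Hsph1, Tnfaip3 and Klf11 (28.6%), and in 9.98% of tested genes. Among those without overlap between the series, it was in 11% of the 557 above series 24 and 10.6% of the 1612 below. Ciart has more than one, and the window at chr3:95882247-95882306 (GRCm38.p6, minus strand) shows those nearest the start in capitals.
Ciart: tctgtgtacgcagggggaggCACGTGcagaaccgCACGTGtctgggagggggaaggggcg

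Clone-named transcripts made up 5 of the 21 calls, and most lie inside other genes whose own level was alike in the series. Gm43581, in an intron of the lactate transporter gene Slc16a1 on the same strand, measured 9.7, 7.6 and 8.5 against 2.2, 2.1 and 1.9 (difference 1.80, SE 0.188, limma adjusted p = 0.0251). Slc16a1 itself measured 36.0, 41.5 and 46.9 against 45.5, 44.2 and 39.5 (difference -0.03). Gm38257 inside Arl5b and Gm48369 inside Bzw2 had differences of 1.27 and 1.63, with 0.05 and 0.03 for their hosts. 4930532G15Rik, a long intergenic RNA on chromosome 1, had a difference of 1.57 (limma adjusted p = 0.032).

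Gm37296 (chromosome 15, 68338295 to 68341216, minus strand), which overlaps part of the Mir30d hairpin, was the 1 gene called lower. It measured 3.3, 4.3 and 4.1 in series 22 and 11.3, 11.5 and 11.3 in series 24, and the series did not overlap (difference -1.42, SE 0.162, limma adjusted p = 0.032). Mir30d was listed at 0.0 in all 6 libraries, and Gm20732, the other gene it overlaps, was at 0.5 to 1.2. The strand setting of the authors' counting is likewise not stated, so reads of transcripts inside or across other genes are uncertain in their assignment.

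T cell activation markers were mixed, and no receptor gene of T cells was called. Of 31 tested activation markers, Nr4a1 was the 1 called (3.23%, against 0.134% of all genes called higher), 5 lay above series 24 in all libraries (16.1%, against 6.14%) and 0 below, and the median difference was 0.11. Cd69, a surface protein that appears early after activation, measured 303.2, 365.7 and 369.4 in series 22 and 216.0, 193.2 and 214.7 in series 24. It did not overlap between the series and was not called (difference 0.74, SE 0.127, limma adjusted p = 0.107). Il2ra, the IL-2 receptor chain CD25 of activated and regulatory T cells, measured 52.6, 59.2 and 52.6 against 63.5, 42.0 and 61.1, with overlap (difference -0.07, SE 0.167, limma adjusted p = 0.925). Ifng, the cytokine of type 1 helper cells, measured 10.9, 14.3 and 20.4 against 5.2, 3.8 and 3.5 (difference 1.76, SE 0.26, limma adjusted p = 0.0702). All 3 series 22 libraries were above series 24 for Ifng, and the clone-named Gm49751 lies inside this gene.

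Cd4, the coreceptor that defines these cells, measured 388.8, 393.9 and 465.0 in series 22 and 458.8, 405.6 and 391.7 in series 24 (difference -0.00, SE 0.128, limma adjusted p = 0.996). Cd3e, a signalling chain of the T cell receptor, measured 118.6, 112.8 and 127.4 against 140.8, 129.1 and 133.2 (difference -0.16, SE 0.111, limma adjusted p = 0.727). Cd4 overlapped between the series, and Cd3e lay lower in series 22 by less than the test could call. Of the 31 tested genes of the T cell receptor and its proximal signalling, 0 were called and 4 (12.9%) lay below series 24 in all libraries, against 14.3% of all genes. Their median difference was -0.07. The lists of naive, effector, regulatory and helper T cell genes likewise had 0 calls, with medians of -0.08, -0.05, -0.06 and 0.09.

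No marker of macrophages and monocytes was called. The sum of the 6 defining markers (Csf1r, C1qa, C1qb, C1qc, Lyz2 and Adgre1) was 162.6, 259.3 and 433.4 FPM in series 22 and 685.9, 499.9 and 1089.4 in series 24. The highest series 22 library, KO 1, was below the lowest of series 24, KO 4. Lyz2, the lysozyme of myeloid cells, measured 19.0, 23.6 and 66.5 against 204.2, 128.3 and 482.5, and its spread within each series was wide (difference -2.57, SE 0.497, limma adjusted p = 0.157). Csf1r, the receptor for macrophage colony-stimulating factor, measured 50.3, 77.4 and 119.2 against 173.3, 115.6 and 227.9, with KO 1 above KO 4 (difference -0.96, SE 0.328, limma adjusted p = 0.467). Of 33 tested myeloid markers 0 were called, 13 were lower and 0 higher at an unadjusted p below 0.05, and 4 lay below series 24 in all libraries (12.1%, against 14.3%). The median difference was -0.73, at -1.15 within WT and -0.30 within KO, against -0.17 and 0.02 over all genes. The part of these cells in the differences of the stress and immediate early genes was not tested. Of the 6 defining markers, Csf1r, C1qa and C1qb overlapped between the series, and none was at 0 in any library.

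No marker of red cell precursors was called. Car2 and Car1, carbonic anhydrases of erythroid cells, were at 32.9, 54.2 and 37.9 against 10.4, 9.4 and 17.6, and at 53.8, 67.5 and 65.2 against 22.1, 14.9 and 33.1. Both lay above series 24 in all 3 libraries, and neither was called (limma adjusted p = 0.101 for Car2 and 0.155 for Car1). Of 12 tested erythroid and platelet markers, 0 were called, 5 (41.7%) lay above series 24 in all libraries, against 6.14% of all genes, and the median difference was 0.53. Alas2, the erythroid enzyme that starts heme synthesis, overlapped between the series at 1.7, 1.9 and 1.7 against 0.9, 1.7 and 0.6 (limma adjusted p = 0.704). The globin genes Hbb-bs and Hba-a1 were listed at 0.0 in all 6 libraries. Car1 and Alas2 were named after their values were seen.

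**Figure D4:**
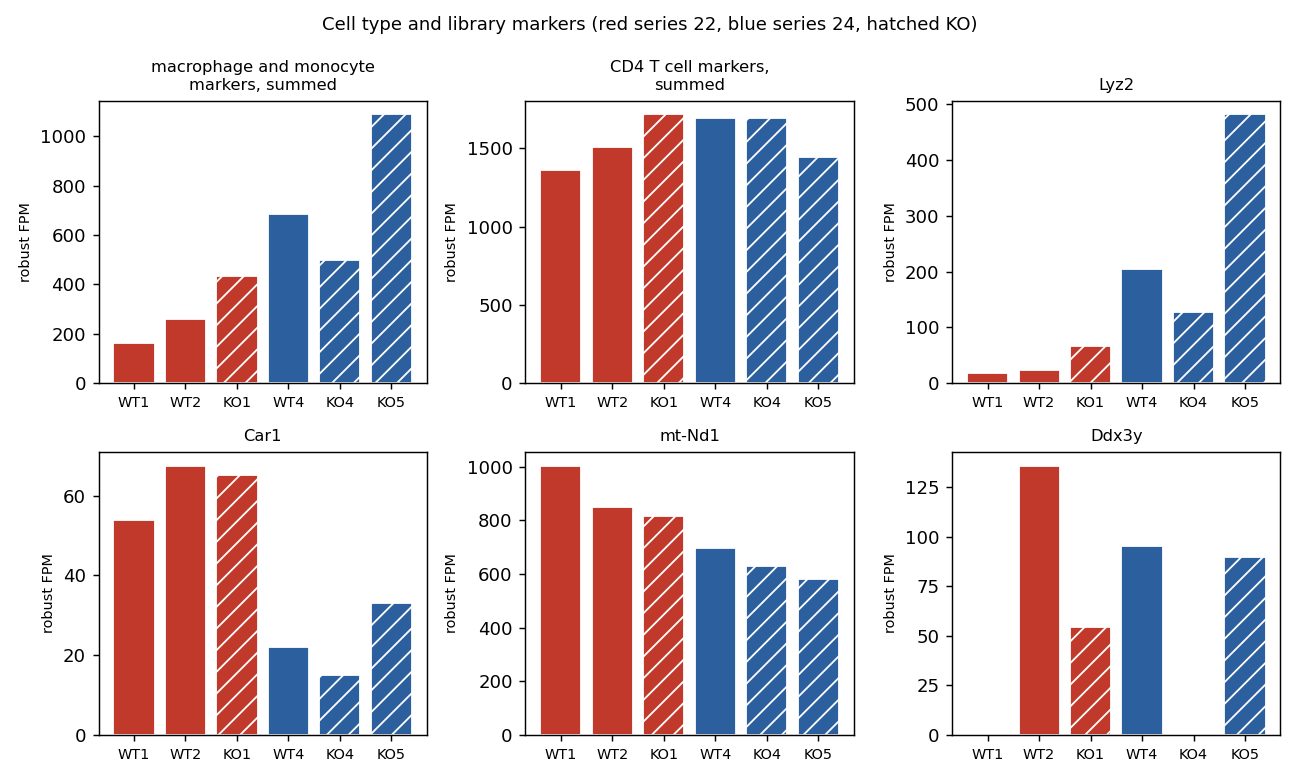
Robust FPM in each library (bars, red for series 22, blue for series 24, hatched for KO) of summed macrophage and monocyte markers, summed CD4 T cell markers, Lyz2, Car1, mt-Nd1 and the Y-linked gene Ddx3y, each axis starting at 0. Summed macrophage markers run from 162.6 in WT 1 to 1089.4 in KO 5, summed CD4 T cell markers run from 1359.2 to 1718.7 with overlap, and Ddx3y is at 0.0 in WT 1 and KO 4.

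Other cell types showed no called marker. The summed markers of CD4 T cells were 1359.2 to 1718.7 in series 22 and 1442.4 to 1695.1 in series 24. B cell markers summed to 9.6 to 16.0 and to 8.5 to 13.6, with overlapping ranges. Cd8a, the coreceptor of the other main T cell lineage, was at 2.1, 1.0 and 1.1 against 0.2, 0.7 and 0.5, and its mean was too low for the test. Markers of CD8 T and NK cells summed to 45.7 to 63.4 and to 44.7 to 55.9.

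No transcript of the mitochondrial genome was called. Of 11 tested, 9 (81.8%) lay above series 24 in all 3 libraries against 6.14% of all genes, 0 were called and 5 had an unadjusted p below 0.05. The median difference was 0.38, at 0.39 within WT and 0.37 within KO, against -0.17 and 0.02 over all genes. The gene mt-Nd1, a subunit of complex I, measured 1003.2, 848.5 and 815.4 against 694.6, 630.1 and 580.7 (difference 0.42, SE 0.115, limma adjusted p = 0.363), and mt-Nd2 measured 240.1, 169.8 and 164.4 against 130.6, 119.5 and 114.5 (difference 0.56, limma adjusted p = 0.363). Nuclear genes of the respiratory chain had a median of -0.01 over 54 members.

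No proliferation gene of the lists was called. Of 41 tested DNA replication genes 13 (31.7%) lay above series 24 in all libraries, against 6.14% of all genes, with a median of 0.18 and 0 called. Pcna, the sliding clamp of the replication fork, measured 192.7, 257.4 and 276.0 against 170.0, 148.3 and 142.2 (difference 0.66, limma adjusted p = 0.325). Of 38 mitosis genes 7 (18.4%, against the same 6.14%) did so, with a median of 0.28 and 0 called. Mki67, a marker of cycling cells, measured 120.1, 112.7 and 113.2 against 104.2, 56.4 and 116.0, so KO 5 lay within the range of series 22 (difference 0.32, SE 0.256, limma adjusted p = 0.747). Malat1, an abundant nuclear RNA, measured 13848.9, 13004.0 and 13010.8 against 14766.4, 13226.9 and 14429.6, with overlap (difference -0.11, limma adjusted p = 0.785).

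Other stress programs held few or no calls. Ppp1r15a was the 1 called of 32 genes of the integrated stress and unfolded protein response, against 0.134% of all genes called higher, 7 (21.9%) lay above series 24 in all libraries, against 6.14%, and the median was 0.01. Hspa5, the endoplasmic reticulum HSP70, measured 502.7, 567.0 and 638.7 against 393.1, 341.0 and 365.6 (difference 0.65, limma adjusted p = 0.168), and Atf4, the factor of the integrated stress response, measured 137.3, 155.4 and 190.1 against 111.1, 83.2 and 97.0 (difference 0.74, limma adjusted p = 0.271). Both lay above series 24 in every library, and both were chosen after their values were seen. Plk2, shared with the immediate early list, was the 1 called of 23 p53 targets (4.35%, against 0.134% of all genes called higher). The median of the p53 targets was -0.13. Hypoxia and oxidative stress genes (24 members), interferon-stimulated genes (50) and glucocorticoid-responsive genes (17) had 0 calls and medians of -0.03, -0.06 and 0.19. Of the glucocorticoid-responsive genes, 4 (23.5%) lay above series 24 in all libraries, against 6.14% of all genes, and 1 (5.88%) lay below, against 14.3%. Over all 34 lists, 11 of 873 tested genes were called higher and 0 lower. Over all genes tested, 20 of 14944 (0.134%) were called higher and 1 (0.00669%) lower. Of the called genes, 10 were on no list.

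The series difference was taken separately in WT (WT 1 and WT 2 against WT 4) and in KO (KO 1 against KO 4 and KO 5), which share no library. All 21 called genes had the same sign in both, and 19 of 21 differed at least 2-fold in both. Hsp90aa1 (0.80 in WT, 1.13 in KO) and Ifrd1 (0.86 and 1.32) were the exceptions. The called genes were selected by a fit to these same libraries, in which disagreement between WT and KO works against a call. Their agreement is therefore largely set by the selection and is no independent support. Of the 1104 genes at least 2-fold higher in WT, 53 were also at least 2-fold higher in KO (4.8%), as were 0.99% of all genes. From the other side, of the 148 genes at least 2-fold higher in KO, the same 53 make up 35.8%, against 7.39% of all genes in WT. At least 2-fold lower were 182 genes in WT and 84 in KO, with 27 in both. These 27 were 14.8% of the 182, against 0.562% of all genes lower in KO. They were 32.1% of the 84, against 1.22% of all genes lower in WT. These counts include genes of low level. Among genes with a mean of 1 to 2.467 FPM, the median difference was 0.41 within WT and -0.11 within KO. Among those from 64.47 FPM up it was -0.22 and 0.05. The WT side includes WT 1, the library with the highest background, and its part in the genes higher in WT was not tested. A term for a series difference that depends on genotype was called for 0 genes, with 369 at an unadjusted p below 0.05 and a smallest limma adjusted p of 0.678, on 2 residual degrees of freedom.

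**Figure D5:**
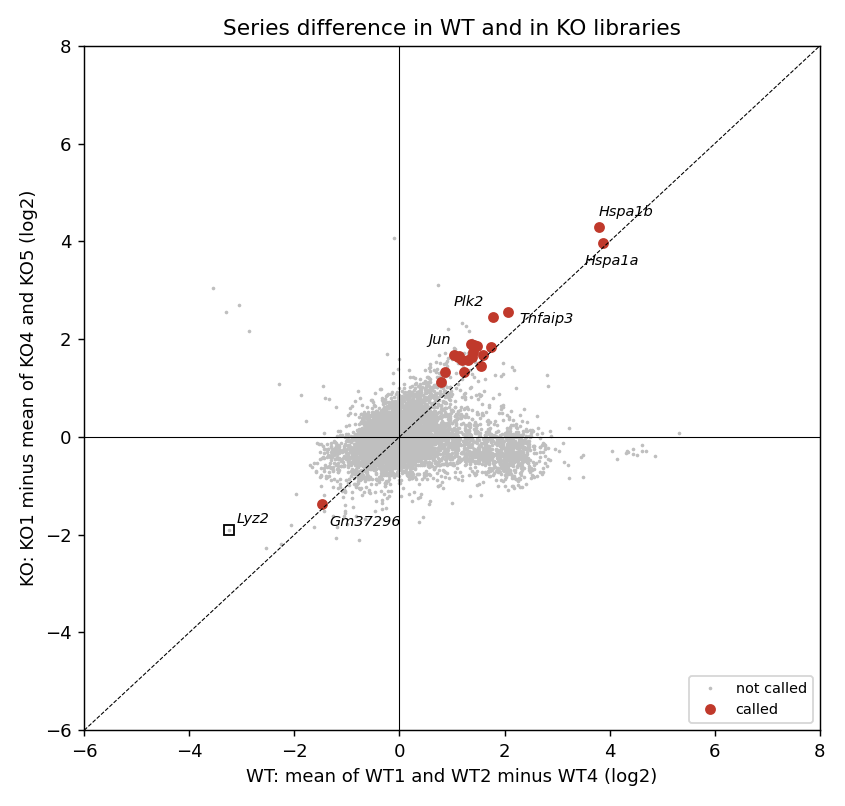
Difference between series (log2) within WT libraries (horizontal axis) and within KO libraries (vertical axis) for 14944 genes, with called genes in red and the dashed line where both are equal. Called genes lie along the line, and a cloud of uncalled genes lies to the right with differences in WT near 2 and in KO near 0 or below.

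Most called genes had a larger difference in KO than in WT. The median difference over all genes was likewise higher in KO (0.02) than in WT (-0.17). Hspa1b had 4.29 and 3.79, Tnfaip3 2.55 and 2.07, Nr4a1 1.90 and 1.36, and Jun 1.68 and 1.04. The interaction was not called for any of them (limma adjusted p = 0.702 for Hspa1b and 0.678 for the others). Klf11, at 1.45 and 1.55, had the reverse order.

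The called-higher genes had a median transcript length of 3078 bases and a GC content of 47.94%, against 3201 and 48.43% over all genes tested. Of these 20 genes, 16 were protein-coding, and in 7 (35%) the longest annotated transcript had a single exon, against 16% of all genes. Hspa1a, Hspa1b and Jun are textbook genes without introns. The called-higher genes also include the clone-named Gm43581, Gm38257, Gm48369 and 4930532G15Rik, which are not protein-coding, and the 7 were not split by class of gene. Genes that lay below series 24 were more frequent at high GC content, at 20.8% of the genes above 54.47% GC and 10.2% of those below 42.84%. Joining segments of the T cell receptor, a separate class of short gene, lay below series 24 in 28 of 61 cases (45.9%, against 14.3% of all genes), with a median of -0.29 and 0 called.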

How the data were processed

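RNA sequencing was analysed from 6 libraries of mouse CD4 T cells. The deposited values are robust FPM made by the authors, handled as RPM, since they are not read counts, and rounded to 1 decimal. Sequencing depth is therefore unknown, and no counting interval is given. Tools named in the submitters' processing notes, with neither version nor role, are DESeq, DESeq2, featureCounts and STAR, and the build named is GRCm38.p3. The table's other 6 value columns, whose names end in act, match no sample by name and were not used. Of 54624 rows, 92 are spike-in RNAs, which were left out of the tests, and 54495 of 54532 gene rows were matched to a GRCm38 annotation (GENCODE) by identifier.

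Values were taken as log2(value + 0.5). The fit, in limma 3.58.1 (R 4.3.3), had the library code and the genotype as terms, a trended prior variance and 3 residual degrees of freedom. The test was two-sided, and p-values were adjusted over all 14944 genes by Benjamini and Hochberg's method. The script was also run on simulated data with independent noise for each gene and library. Those data held no library-wide difference such as the background of WT 1, so they cannot show how such a difference affects the calls. The submitters' design text calls the samples of a genotype biological replicates, and no source used here ties a library to an animal or a culture, so p-values measure the spread between these samples, part of which may be technical. Intervals are at 95%.

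The comparison, the gene lists and the named genes were chosen with earlier results of these data known. Named by rule are 19 genes in every case, the 12 smallest p-values among calls in each direction and, for each list described, up to 5 called members or the 2 of smallest p. A few of these genes are not reported here. A sum of a list is its markers' summed FPM. Of 964 symbols on the lists, 962 were found. Promoters were matched to RefSeq by symbol for 10219 tested genes. Alternatives changed the pseudocount, the filter, the genotype term, the scaling, the variance model, the weights of libraries, the background, the threshold and the set of libraries. A term for the presence of Y-linked transcripts was added after seeing the data. Figures were drawn with matplotlib 3.10.9.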

Additional observations from a re-analysis of the deposited data

How the results depend on the processing

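Direction was kept by all 21 called genes in every alternative in which they were tested, and their calls were not. The alternatives reuse the libraries that selected these genes, so the kept direction is no independent support. The counts of genes called higher and lower, 20 and 1, became 28 and 2 with a pseudocount of 0.1, 15 and 1 with no filter, 48 and 6 with a mean of at least 5, and 70 and 17 with no genotype term. They were 14 and 1 with total-sum scaling, 8 and 3 with scaling to the spike-in rows, 55 and 3 with median-of-ratios scaling, 0 and 0 with no mean-variance trend (509 and 650 at an unadjusted p below 0.05), 61 and 9 with array weights, 34 and 3 with robust variance and 45 and 5 after background subtraction. Of the 20 genes called higher, 3 were called again with spike-in scaling, 14 with total-sum scaling, 15 with no filter, 16 without KO 4, and 6 each without WT 2 and without KO 5. At thresholds of 0.01 and 0.10 they were 3 and 0, and 37 and 5. Leaving out a library gave 0 to 92 higher and 0 to 25 lower. The added Y-linked term gave 174 and 174. Hspa1a and Hspa1b were each called in 16 of 19 alternative fits, as was Tnfaip3, with differences of 3.65 to 4.29 for the HSP70 genes and 2.07 to 2.55 for Tnfaip3. The interaction was called for 6 genes with spike-in scaling (49 at an unadjusted p below 0.05), 4 of them the Y-linked genes, and for 0 in the other fits. The cause was not tested.

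Differences near 0 turned in sign. Leaving out a library moved Il2ra from -0.20 to 0.05, Cd4 from -0.23 to 0.22 and Prmt5 from -0.21 to 0.11. Il2ra was at 0.00 with no genotype term and with median-of-ratios scaling, Cd4 at 0.07 with median-of-ratios scaling, and Prmt5 at 0.21 with no genotype term, 0.02 with median-of-ratios scaling and 0.00 with array weights.

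The median of the heat shock list ran from -0.01 to 0.33 and that of immediate early genes from 0.39 to 0.88, lowest without KO 1 and highest without WT 4, and myeloid markers ran from -1.15 to -0.30 likewise.

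No paired analysis was possible because the 2 series share no replicate number within a genotype. Sequencing depth is unknown, so the counting error of low values could not be given.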

Other observations

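Several genes that monocytes are known to express, beyond the marker list, were picked from the uncalled genes with a difference of at least 1.2 on the log2 scale, and limma called none of them. Fn1, the matrix protein fibronectin, measured 9.3, 3.9 and 8.8 in WT 1, WT 2 and KO 1 and 31.0, 21.7 and 81.7 in WT 4, KO 4 and KO 5. Chil3, a chitinase-like protein of monocytes and alternatively activated macrophages, measured 4.4, 3.5 and 7.0 against 25.3, 14.3 and 87.4. F13a1, a clotting factor subunit made by monocytes and macrophages, measured 7.7, 7.5 and 11.1 against 33.5, 21.1 and 76.5. Tgfbi measured 9.9, 10.4 and 20.1 against 40.8, 26.7 and 77.7, and Hp, which encodes haptoglobin, 2.2, 2.9 and 3.3 against 8.8, 5.3 and 31.9. In these genes KO 5 was highest and the series did not overlap (limma adjusted p = 0.227 to 0.446). Vcan, the matrix proteoglycan versican, overlapped between the series at 5.3, 3.0 and 2.1 against 7.2, 3.9 and 27.8, as did Gda, a guanine deaminase, at 7.0, 4.9 and 4.6 against 10.7, 5.5 and 40.1 (limma adjusted p = 0.598 and 0.653).

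Aqp1 and Cd24a were picked in the same way. Aqp1, the water channel of red cells and of some other cells, measured 14.3, 20.3 and 19.7 against 6.4, 4.7 and 11.4. Cd24a, a surface protein of immature blood cells, measured 21.1, 23.3 and 13.7 against 4.5, 3.3 and 7.3. The series did not overlap in either gene, and limma called neither (adjusted p = 0.26 and 0.105). Among genes with a mean of at least 5, 49 differed by at least 1.2 on the log2 scale without being called, 37 of them higher and 12 lower in series 22. All genes named in this section were chosen after their values were seen.

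A family of clone-named genes followed single libraries and not the series. Gm26870 measured 84344.3, 11910.1 and 4084.7 FPM in WT 1, WT 2 and KO 1 and 792.5, 11476.3 and 1304.3 in WT 4, KO 4 and KO 5. Gm10800 measured 77190.7, 14259.6 and 5262.0 against 1651.1, 16563.1 and 2504.9. Both were highest in WT 1, next in WT 2 and KO 4, and lowest in WT 4. The signal over olfactory and vomeronasal receptor genes was 0.295, 0.0813 and 0.0333 FPM per kb against 0.0141, 0.0789 and 0.0246, highest and lowest in the same libraries. Differences of 2.70 and 2.02 came with standard errors of 1.32 and 1.16, and neither gene was called (limma adjusted p = 0.623 and 0.681).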
